A study of Mus musculus with 6 samples.

Results

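Brain border macrophages are the macrophages of the meninges, the perivascular spaces and the choroid plexus, set apart from the microglia of the parenchyma. In mice they are known by RNA of scavenger receptors such as Mrc1, Cd163 and Lyve1, and by Pf4, F13a1, Ms4a7 and Cbr2, which resting microglia carry at low level or not at all. Microglia in turn are known by P2ry12, Tmem119, Sall1 and Sparc. Border macrophages take up material from blood and cerebrospinal fluid, and part of them presents antigen on MHC class II.

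Such cells were sought in Drop-Seq data of the hippocampus. In Drop-Seq each cell shares a droplet with a bead that tags its RNA 3′ ends, and molecules are counted by unique molecular identifier (UMI). The 6 mice were B6.Cg-Tg(APPswe,PSEN1dE9)85Dbo animals (APP/PS1), which all carried human amyloid precursor protein and presenilin transgenes, and all were 10 weeks old. The first 3 mice described here had received an antisense oligonucleotide (ASO) and the other 3 phosphate buffered saline (PBS). IDOL, the ubiquitin ligase encoded by Mylip, is named in the title of the study as the protein reduced. Since PBS mice had no control oligonucleotide, effects of any oligonucleotide and of the target cannot be told apart.

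A cell was counted as marker-positive when the authors had put it in their class of microglia and macrophages and it held at least 1 UMI of any of 8 genes, here called the rule genes: Mrc1, Cd163, F13a1, Lyve1, Pf4, Ms4a7, Cbr2 and Ccl24. The rule found 133 of 12823 cells (1.04%). After removal of 6 called doublets, 127 remained among 1852 cells of the class (6.86%), and the other 1725 are called marker-negative. The cells were thus chosen by their measured UMIs of these 8 genes, so levels of the rule genes and every comparison of marker-positive with marker-negative cells are descriptions without a test. The 127 cells held 146491 UMIs in all, with a median of 1049 UMIs per cell, against a median of 978 UMIs in marker-negative cells. Per mouse, marker-positive cells gave 38751, 16313 and 37739 UMIs in ASO mice and 18713, 24199 and 10776 UMIs in PBS mice.

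Across the series, 12616 cells remained after removal of doublets, with 569 to 1999 UMIs per cell as deposited. There were 7 barcodes found in more than 1 mouse, and 0 of the marker-positive cells carried one of them. PBS mouse 3 stood apart: Ttr, a choroid plexus transcript seen in the microglia and macrophage class too, reached 1060 CPM there (CPM, UMIs of the gene per 1000000 UMIs), against 4067 to 9219 CPM in the other 5 mice. It also had the fewest marker-positive cells, so the shares of cells, the MHC class II values and several gene lists are given without it too. Mice were also put into 3 technical sets of 2 mice each, by the rank of their ratio of mt-Rnr2 to mt-Cytb. The ratio was 4.49 in ASO mouse 2 and 7.16 in PBS mouse 2. It was 10.9 in ASO mouse 1, 12.9 in PBS mouse 1, 15.9 in ASO mouse 3 and 16.8 in PBS mouse 3. Each set thus held 1 ASO and 1 PBS mouse of the same number, but the cuts between sets were set by rank. Nothing in the labels says whether the mice were littermates or were processed on separate days.

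The marker-positive cells differed widely in how many rule-gene UMIs they held. Of the 127 cells, 53 (41.7%) passed the rule by exactly 1 UMI, 10 had 2 UMIs and 64 had 3 or more, up to 43 UMIs in a cell. Together they held 756 of the 1003 rule-gene UMIs in the hippocampus (75.4%). Different rule genes occurred in the same cells: 63 cells held at least 2 of the 8 genes, and 1 cell held all 8.

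Pf4, the chemokine platelet factor 4 (GRCm38 chromosome 5, 90772435 to 90773383, plus strand), gave 212 UMIs in 57 marker-positive cells. Mrc1, the mannose receptor CD206 (chromosome 2, 14229392 to 14332057, plus strand), gave 178 UMIs in 64 cells. F13a1, the A chain of coagulation factor XIII, gave 106 UMIs in 58 cells. Ms4a7, which encodes a membrane protein of the MS4A family, gave 97 UMIs in 63 cells. These 4 genes were each seen in 44.9% to 50.4% of the marker-positive cells.

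The other 4 rule genes were sparser. Cd163, a scavenger receptor for haemoglobin bound to haptoglobin, gave 56 UMIs in 32 cells. Cbr2, a carbonyl reductase, gave 45 UMIs in 24 cells, and Lyve1, a hyaluronan receptor, gave 44 UMIs in 14 cells. Ccl24, a chemokine for eosinophils, gave 18 UMIs in 14 cells.

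Per mouse, Mrc1 was at 1006, 1410 and 848 CPM in marker-positive cells of ASO mice and at 1550, 1942 and 742 CPM in those of PBS mice. Pf4 was at 1006, 2697 and 874 CPM in ASO mice and at 1122, 2314 and 1763 CPM in PBS mice. The groups overlapped for both genes. Ms4a7 was at 697, 797 and 609 CPM in ASO mice and at 374, 826 and 650 CPM in PBS mice, which overlapped as well. Lyve1 UMIs were found in all 3 ASO mice, at 129, 429 and 291 CPM, but in 1 PBS mouse alone, at 868 CPM.

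A cell with a UMI of 1 rule gene often held another. Every one of the 14 cells with Lyve1 RNA had a second rule gene, and so did 95.8% of cells with Cbr2, 87.5% with Cd163, 86.0% with Pf4, 79.7% with Mrc1, 77.6% with F13a1, 68.3% with Ms4a7 and 64.3% with Ccl24. Among class cells without the gene in question, 3.52% to 6.15% had another rule gene. Ms4a7 was the sole rule gene in 20 cells, Mrc1 and F13a1 in 13 each, and Pf4 in 8.

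Because these genes occurred together, the 250 bases before the start that RefSeq gives to the 2 genes with the most UMIs are shown, from its promoter sequences on GRCm38.p6. For Mrc1 that start lies inside the gene span given above, so the end of its window overlaps the span. Both windows lie on the plus strand, Pf4 at chr5:90772185-90772434 and Mrc1 at chr2:14229164-14229413, and capitals mark the letters GAGGAA, or TTCCTC where they lie on the other strand.
Pf4: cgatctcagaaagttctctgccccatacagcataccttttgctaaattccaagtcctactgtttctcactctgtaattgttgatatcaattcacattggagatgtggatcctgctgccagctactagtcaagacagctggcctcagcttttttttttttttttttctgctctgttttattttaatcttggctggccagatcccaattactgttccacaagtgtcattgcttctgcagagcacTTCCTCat
Mrc1: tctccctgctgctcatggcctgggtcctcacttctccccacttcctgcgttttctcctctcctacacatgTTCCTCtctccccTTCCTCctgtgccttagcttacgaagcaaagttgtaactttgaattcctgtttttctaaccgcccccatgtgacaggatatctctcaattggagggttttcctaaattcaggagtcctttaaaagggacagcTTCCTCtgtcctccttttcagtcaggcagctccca
GAGGAA is the core that the myeloid transcription factor PU.1 is known to bind. Of the 8 rule genes, 6 had an entry in the table. The letters occurred on either strand for 4 of these 6 genes (Mrc1, F13a1, Pf4 and Cbr2), where a gene counted if any of its windows held them. Of all 32851 single windows of the same length, 23.3% held them. A count of genes and a share of windows are unlike measures, so no excess is read from them. The longer GAGGAAGT, which contains GAGGAA, occurred for Pf4 alone of the 6 genes, and in 2.44% of all single windows. A match is a run of letters, and no binding was measured.

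RNA of the rule genes also turned up outside the class, which sets the background for a rule of 1 UMI. Of 10764 cells in the other 16 classes, 2.14% had at least 1 such UMI and 16 cells (0.149%) had 2 or more, at a median depth of 1068 UMIs, against 985.5 UMIs in the class. The share with at least 1 UMI was 0.967% in oligodendrocytes, 1.99% in endothelial cells, 2.24% in astrocytes and 2.58% in dentate neurons. Mural cells reached 7.83%, through Cbr2 (20 UMIs) and Cd163 (18 UMIs).

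Applied to the 1852 class cells, the share outside the class would give 36.8 cells with exactly 1 UMI and 2.75 cells with 2 or more. The class held 53 and 74 such cells. With every cell thinned to 500 UMIs, the shares were 5.51% in the class and 0.920% outside it. Cells with exactly 1 UMI made up 3.41%, 1.49% and 4.71% of the class in ASO mice and 2.94%, 2.77% and 1.42% in PBS mice. In ASO mouse 2 and PBS mouse 3, that was below the share of cells outside the class with exactly 1 UMI, 1.63% and 1.88%.

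Clusters of the class built without the rule genes put most of the cells with 2 or more UMIs in 1 place. Cluster 5 held 85 cells, of which 73 were marker-positive, and it was led by H2-Eb1, H2-Aa, H2-Ab1 and Cd74, which encode MHC class II chains and their chaperone, with Ccl7, Clec4n, Ifi203, Clec12a, Lgals1 and Dab2. It took 64 of the 74 cells with 2 or more UMIs (86.5%) but 9 of the 53 cells with exactly 1 UMI (17.0%). Of the other 44 cells with 1 UMI, 15 were in cluster 3, led by Cxcl13, Baiap2l2, Gpnmb, Cst7, Ctse and Lpl, 13 in cluster 2, 9 in cluster 4, 6 in cluster 1 and 1 in cluster 6. Median depth was 1117 UMIs in cluster 3 and 840 UMIs in cluster 2.

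**Figure D1:**
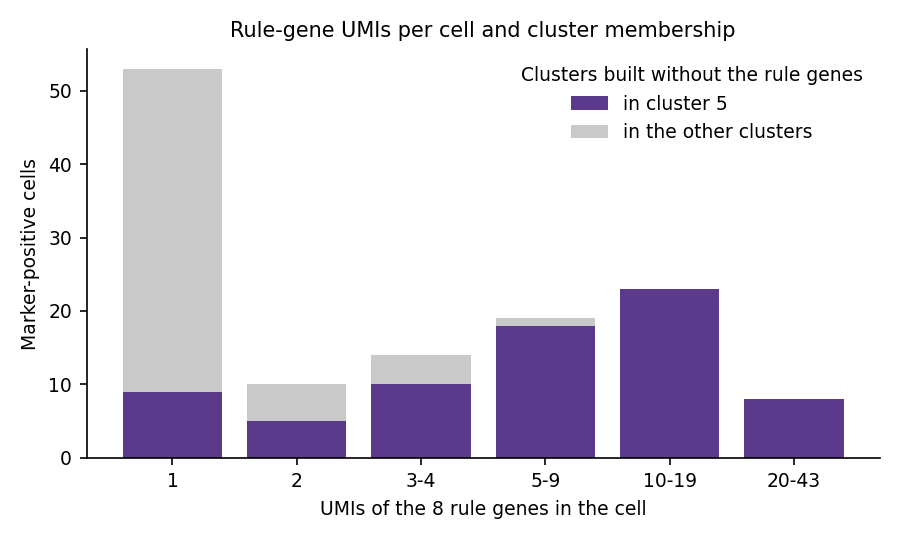
Marker-positive cells (y axis, number of cells) by the UMIs of the 8 rule genes they held (x axis), split into cells of cluster 5 and cells of the other clusters of the class. Of the 53 cells with 1 UMI, 44 lay outside cluster 5, whereas the 23 cells with 10 to 19 UMIs and the 8 cells with 20 to 43 UMIs all lay in it.

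The label was compared with listed macrophage and microglial genes that the rule did not use. The lists were chosen with earlier results of these data known, so the comparison is a description and no independent check. In cells with 2 or more rule-gene UMIs the listed genes went with the label, and in most cells with exactly 1 UMI they did not. The 25 listed border macrophage genes outside the rule summed to 22063 CPM in cells with 2 or more UMIs and 7441 CPM in cells with 1 UMI, against 2722 CPM in marker-negative cells. The 15 microglial genes summed to 3703 CPM in cells with 2 or more UMIs and 12887 CPM in cells with 1 UMI, against 16787 CPM in marker-negative cells. Of the cells with 1 UMI, the 44 outside cluster 5 had 14865 CPM of microglial and 4309 CPM of macrophage RNA, while the 9 in cluster 5 had 3874 CPM and 21714 CPM.

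Levels of single genes are given by the number of rule-gene UMIs. Lyz2, lysozyme of myeloid cells, was at 1149 CPM in cells with 0 rule-gene UMIs, 4798 CPM with 1, 11778 CPM with 2 and 10852 CPM with 3 or more. Of the 296 Lyz2 UMIs in cells with 1, 177 lay in the 9 cells of cluster 5. Dab2, an adaptor of endocytosis, was at 39.2, 162, 380 and 1333 CPM in the same order. Its value with 1 rests on 10 UMIs in 3 cells, and 9 of these UMIs lay in 2 cells of cluster 5. Its value with 2 rests on 4 UMIs. The middle steps thus do not show a gradual change within cells of 1 kind. Ccl7, a chemokine for monocytes, was at 16.3 CPM with 0 UMIs and 16.2 CPM with 1, had no UMI in the 10 cells with 2, where 3 UMIs would be 285 CPM, and reached 2006 CPM with 3 or more.

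Microglial genes ran the other way. P2ry12, a purinergic receptor, was at 1525, 1200, 190 and 135 CPM in cells with 0, 1, 2 and 3 or more UMIs. Sparc, a matrix glycoprotein, was at 2971, 1929, 475 and 53.9 CPM. Sall1, a transcription factor of microglia, was at 273 and 113 CPM in cells with 0 and 1 UMI and had no UMI in the 64 cells with 3 or more, where 3 UMIs would be 40.4 CPM. Csf1r, the receptor for the growth factor CSF1 that both cell types need, was at 1902, 1556, 1710 and 916 CPM, and the Fc receptor-like gene Fcrls at 1221, 1151, 380 and 862 CPM.

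Cst7 and Ctsd, genes of the disease-associated state of microglia, were at their highest in cells with 1 UMI. Cst7, a cystatin, was at 798, 1832, 380 and 13.5 CPM across the 4 steps, and Ctsd, a lysosomal protease, at 7662, 12109, 4464 and 2787 CPM. In the 44 cells with 1 UMI outside cluster 5, Cst7 was at 2234 CPM and Ctsd at 14351 CPM, while Cst7 had no UMI in the 73 marker-positive cells of cluster 5. Apoe, the lipid carrier, was at 7416, 30330, 61740 and 46530 CPM. Ttr stayed between 3476 and 4539 CPM in all 4 steps.

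**Figure D2:**
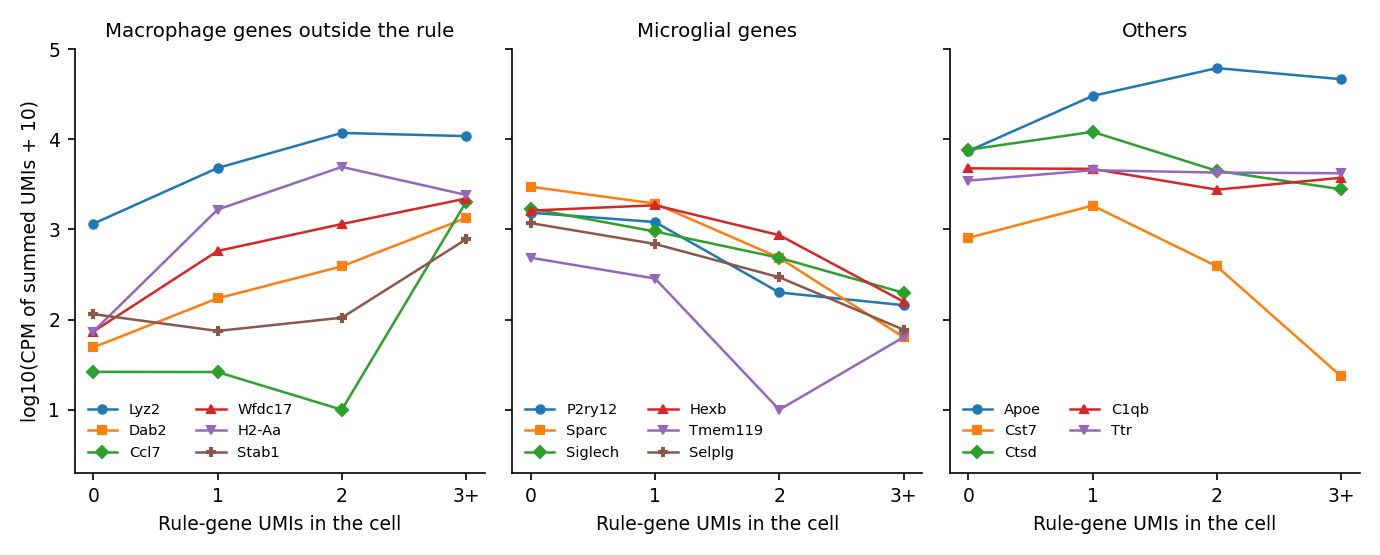
Level of single genes in class cells with 0, 1, 2 and 3 or more UMIs of the rule genes (x axis), as log10 of CPM of the summed UMIs plus 10 (y axis), over all 6 mice. Macrophage genes such as Lyz2 and Dab2 were higher, and microglial genes such as P2ry12 and Sparc lower, in cells with 2 or more UMIs than in cells with 0, while Ttr was flat; the group with 2 UMIs holds 10 cells.

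Over all 127 marker-positive cells, Ccl7, Clec4n and Cxcl1 had the highest ratios to marker-negative cells, and Tmem119, Adamts1 and Il1a the lowest. Genes were ordered by the median over mice of the log2 ratio of CPM plus 10, among those in 1 direction in all 6 mice. That held for 105 of 1283 genes (8.18%) with at least 20 UMIs in marker-positive cells in the upward direction. Downward it held for 84 of 419 genes (20%) with at least 50 UMIs expected there. Since the rule used this contrast, these counts are a description.

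Ccl7 stood at the top, with 387, 613 and 1325 CPM in marker-positive cells of ASO mice and 481, 2479 and 557 CPM in those of PBS mice, against 10.4 to 25.0 CPM in marker-negative cells. Its median log2 ratio was 4.84, and 3 cells held 46.7% of its UMIs. Dab2 was at 594, 1103 and 768 CPM in ASO mice and 855, 620 and 1114 CPM in PBS mice, against 18.2 to 89.5 CPM in marker-negative cells (median log2 ratio 3.90). Both genes were higher in marker-positive cells in 6 of 6 mice without overlap.

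The genes next to Ccl7 were, by median log2 ratio, Clec4n (4.21), which encodes the C-type lectin Dectin-2, Cxcl1, a chemokine for neutrophils, Clec12a (4.19), an inhibitory lectin receptor, and Lgals1 (4.14), galectin-1. Wfdc17 followed at 4.08, then Ifi203, an interferon-inducible gene, and AI607873 (3.92). Below Dab2 came Cybb (3.87), the catalytic subunit of the phagocyte NADPH oxidase. Mndal (3.52), Cp (3.49), the copper-carrying ferroxidase ceruloplasmin, Lyz1 (3.40), Vcam1 (3.29), an adhesion molecule, and Ms4a6c (3.12) completed the 15 highest. Clec4n, Cxcl1 and Cp had no UMI in the 53 cells with exactly 1 rule-gene UMI, where 3 UMIs would be 48.6 CPM. The listing of Cxcl1 rests on 35 UMIs in 10 cells, with 45.7% of them in 3 cells. In ASO mice 2 and 3 and PBS mouse 1 they came from 1 cell each.

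Among the lowest, Tmem119, a microglial membrane protein, was at 181, 0 and 106 CPM in marker-positive cells of ASO mice and at 534, 0 and 0 CPM in those of PBS mice, against 387 to 604 CPM in marker-negative cells (median log2 ratio -3.68). Its listing rests on 21 UMIs, 10 of them in PBS mouse 1. Adamts1, a secreted metalloprotease, followed at -3.01, then the cytokine genes Il1a (-2.22) and Tnf (-1.86), Selplg (-1.85), the ligand of P-selectin, and Sparc (-1.83). Gm14023 (-1.82), Nav3 (-1.78), Sgk1 (-1.73), a serine kinase, and Ptgs1 (-1.68), cyclooxygenase 1, completed the 10 lowest.

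By list, 25 of 25 border macrophage genes outside the rule were higher in marker-positive than in marker-negative cells in summed CPM, with a median log2 ratio of 2.37. Of the 15 microglial genes, 0 were higher (median -1.33). Among 7 MHC class II genes, 6 were higher, and the list summed to 9748 CPM in marker-positive cells, against 621 CPM in marker-negative cells. Chemokine and cytokine genes were split, with 8 of 15 higher. Ccl2, Ccl8, Ccl12 and Cxcl2 reached 1575, 215, 1468 and 2302 CPM in cells with 3 or more UMIs, against 143, 1.09, 410 and 164 CPM in marker-negative cells, whereas Ccl4 and Ccl6 were at 996 and 13.5 CPM, against 2874 and 399 CPM.

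Complement genes were split too, with 4 of 9 higher. C4b and Cfp, properdin, each reached 188 CPM in cells with 3 or more UMIs, against 4.36 and 3.27 CPM in marker-negative cells. C1qb, a chain of the first component, was at 3743 CPM there, against 4761 CPM. The C4b and Cfp values rest on 14 UMIs each. Over all marker-positive cells, C4b had 0, 1 and 1 UMIs in ASO mice and 3, 5 and 5 in PBS mice. Cfp had 5, 5 and 2 UMIs in ASO mice and 0, 1 and 1 in PBS mice.

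Markers of other cell types were looked for in the same cells. The 5 T and NK cell genes and the 3 B cell genes had 0 UMIs in marker-positive cells. Of the neutrophil genes S100a8, Ly6g and Retnlg were at 0, and of the monocyte genes Ly6c2. Of the endothelial genes Cldn5, Ly6c1, Itm2a and Slco1a4 were at 0, and of the mural genes all but Rgs5. The neutrophil genes Csf3r and S100a9 were present, and that list summed to 205 CPM, against 381 CPM in marker-negative cells. Flt1 and Pecam1 were present too, and the endothelial list summed to 75.1 CPM, against 156 CPM. Fibroblast genes summed to 41.0 CPM (6 UMIs), against 25.6 CPM. Other genes of monocytes and dendritic cells were present. The 4 monocyte genes in the data summed to 95.6 CPM in marker-positive and 28.9 CPM in marker-negative cells, with Ccr2, the chemokine receptor of monocytes, at 75.1 CPM and 12.5 CPM. The 5 dendritic cell genes summed to 205 CPM and 64.8 CPM. Of their 30 UMIs in marker-positive cells, 18 were of the lectin gene Cd209a, which was at 123 CPM and 2.18 CPM. The part of monocytes and dendritic cells in the results was not tested. Oligodendrocyte genes summed to 1195 CPM in marker-positive and 1264 CPM in marker-negative cells, and astrocyte genes to 676 CPM and 720 CPM.

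**Figure D3:**
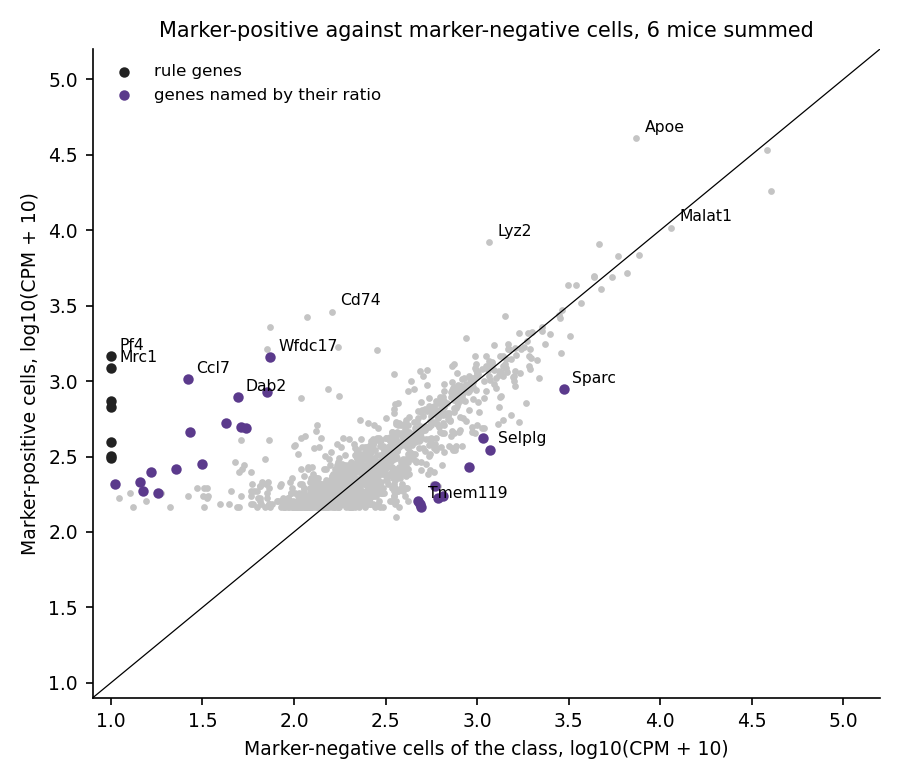
Level in the 127 marker-positive cells (y axis) against that in the 1725 marker-negative cells of the class (x axis), as log10 of CPM plus 10, for genes with at least 20 UMIs in marker-positive cells or at least 50 expected there; the line marks equal levels. Rule genes are at 0 in marker-negative cells by construction; Lyz2, Apoe and Cd74 lie above the line and Sparc, Selplg and Tmem119 below it.

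The 74 cells with 2 or more UMIs were looked at for the known division of border macrophages into Lyve1 and MHC class II cells, as a description since Lyve1 is a rule gene. Of 14 cells with Lyve1 RNA, 1 had 5 or more UMIs of H2-Aa, H2-Ab1, H2-Eb1 and Cd74 together, against 20 of 60 cells without it. The 4 genes summed to 1827 CPM in cells with Lyve1 RNA, against 13212 CPM in those without. Cells with Lyve1 RNA also had more Folr2, a folate receptor (628 CPM against 134 CPM), and more Cd209f, a lectin (457 CPM against 89.2 CPM). Cd209a, listed above as a dendritic cell gene, was at 628 CPM (11 UMIs) in them, against 104 CPM (7 UMIs). Ccr2 had 0 UMIs in the cells with Lyve1 RNA and 7 UMIs in the 60 others. The cells with Lyve1 RNA came from 4 of the 6 mice, with 3, 4 and 3 cells in ASO mice and 0, 4 and 0 in PBS mice.

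Among cells with exactly 1 rule-gene UMI, 8 of the 9 in cluster 5 had 5 or more UMIs of the 4 MHC genes, against 0 of the 44 outside it. Since cluster 5 was built on genes that include these, that restates how it was made. Cluster 5 further held 12 marker-negative cells, of which 10 had 5 or more MHC UMIs. In these 12 cells Lyz2 was at 11742 CPM, beside 11180 CPM in the marker-positive cells of the cluster. The 2 sums were made up unlike each other. Lyz2 was seen in 8 of the 12 cells, and 3 cells held 87.3% of its UMIs. Among the 73 marker-positive cells of the cluster all 73 had Lyz2, and 3 cells held 17.2% of its UMIs. Stab1 and Folr2, a scavenger and a folate receptor, had 0 UMIs in the 12 cells. Sparc and P2ry12 had 2 and 0 UMIs in them. Their dendritic cell genes summed to 892 CPM (12 UMIs) and their monocyte genes to 669 CPM (9 UMIs), against 252 CPM and 144 CPM in the marker-positive cells of the cluster.

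MHC class II RNA varied widely between mice. The 4 genes summed to 6684, 4720 and 5750 CPM in marker-positive cells of ASO mice and to 26238, 13926 and 0 CPM in those of PBS mice. PBS mouse 3 lay below all 3 ASO mice and the other 2 PBS mice above them, so without it the groups did not overlap. Its 10 cells had 0 MHC UMIs among 10776 UMIs, where 3 UMIs would be 278 CPM. Of these cells 5 lay in cluster 5, and the 54 marker-positive cells of all mice outside cluster 5 held 13 MHC UMIs. So few cells do not show that such RNA was absent in PBS mouse 3. The sums of the other mice rest on few cells too, with MHC UMIs in 11, 3 and 9 cells of ASO mice and in 7 cells each of PBS mice 1 and 2. In PBS mouse 1, 1 cell held 118 of 491 UMIs. In marker-negative cells of PBS mouse 3 the genes were at 277 CPM, within the 212 to 637 CPM of the other mice.

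The share of marker-positive cells in the class was higher on average in ASO than in PBS mice, but the groups overlapped and the difference did not pass the test. ASO mice had 34, 15 and 30 such cells among 440, 201 and 297 class cells, and PBS mice had 15, 23 and 10 among 272, 289 and 353. That is 7.73%, 7.46% and 10.1% in ASO mice and 5.51%, 7.96% and 2.83% in PBS mice, so PBS mouse 2 lay within the ASO range and the other 2 below it. The exact 95% binomial intervals, which cover counting error only, ran from 6.92% to 14.1% for ASO mouse 3 and from 1.37% to 5.15% for PBS mouse 3. Means were 8.43% ± 1.45 in ASO mice and 5.44% ± 2.56 in PBS mice (SD, n = 3 each), a difference of 2.99 percentage points (exact two-sided permutation test, p = 0.3, where 0.1 is the smallest p that 3 against 3 can give). Without PBS mouse 3 the difference was 1.69 percentage points.

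Stricter counts overlapped between the groups as well. Cells with 2 or more UMIs made up 4.32%, 5.97% and 5.39% of the class in ASO mice and 2.57%, 5.19% and 1.42% in PBS mice (exact permutation p = 0.2, n = 3 each), and without PBS mouse 3 the difference of 2.17 percentage points was 1.34. Cluster 5 took 5.23%, 5.47% and 5.05% of the class in ASO mice and 4.04%, 6.92% and 1.42% in PBS mice (exact permutation p = 0.7, n = 3 each). PBS mouse 2 had the highest share of cluster 5 of all mice and PBS mouse 3 the lowest. The difference in the share of cluster 5 turned with PBS mouse 3, at 1.12 percentage points with it and -0.23 without it (exact permutation p = 0.8, n = 3 ASO and 2 PBS mice). Of the marker-positive cells, 63.1% ± 14.7 had 2 or more UMIs in ASO mice and 54.0% ± 9.89 in PBS mice (SD, n = 3 each; exact permutation p = 0.5). That difference of 9.11 percentage points was 0.646 without ASO mouse 2, 5.46 without PBS mouse 1, 7.13 without PBS mouse 3, 14.0 without ASO mouse 3 and 14.7 without PBS mouse 2.

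**Figure D4:**
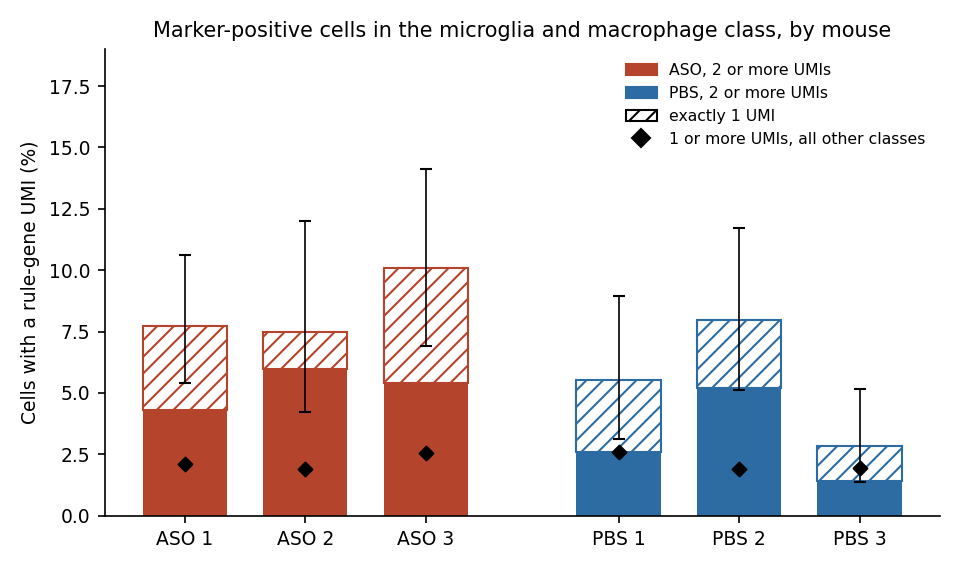
Percent of class cells with a UMI of the rule genes in each mouse (bars; filled part, cells with 2 or more UMIs; hatched part, exactly 1 UMI; error bars, exact 95% binomial intervals of the whole bar), and percent of cells of all other classes with at least 1 UMI (diamonds). The ASO bars reach 7.46% to 10.1% and the PBS bars 2.83% to 7.96%, and the diamonds lie between 1.90% and 2.58%.

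Mylip, the presumed target, was too sparse in marker-positive cells to test. The gene spans 45389742 to 45412022 of chromosome 13 (GRCm38, plus strand). Marker-positive cells held 20 Mylip UMIs, namely 8, 1 and 2 in ASO mice and 5, 1 and 3 in PBS mice, which is 206, 61.3 and 53.0 CPM in ASO mice and 267, 41.3 and 278 CPM in PBS mice. The groups overlapped, and 15 of the 20 UMIs lay in cells with exactly 1 rule-gene UMI. In marker-negative cells 2 of 5123 genes tested were called (0.039%), 1 higher (0.0195%) and 1 lower (0.0195%) in ASO mice, and the lower one was Mylip. Mylip was there at 164, 211 and 191 CPM in ASO mice and 360, 404 and 393 CPM in PBS mice, without overlap (log2 fold change -1.04, SE 0.18, edgeR adjusted p = 0.00262), a call that was lost without ASO mouse 1 (adjusted p = 0.108) or PBS mouse 2 (adjusted p = 0.0658). The ASO effect in marker-positive minus that in marker-negative cells was 0.63 (SE 0.77, edgeR adjusted p = 0.999), so a difference was not detectable at this depth.

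In marker-positive cells, no gene passed the test between ASO and PBS mice. Of 301 genes with enough UMIs, 4 were rule genes and were left unread. Of the remaining 297, 0 (0%) had an edgeR quasi-likelihood adjusted p below 0.05, and the lowest adjusted p was 0.602. An unadjusted p below 0.05 was reached by 19 of these 297 genes in edgeR and by 17 in DESeq2, which called 0 as well. In CPM scaled as for the edgeR fit, every ASO mouse lay above every PBS mouse for 20 genes (6.73%) and below for 17 (5.72%). Of the fold changes 51.9% were above 0.

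Lyz2 spans 117277331 to 117282321 of chromosome 10 (GRCm38, minus strand), next to the near-identical Lyz1 at 117287797 to 117292868, and how reads were split between the 2 genes is uncertain. It was at 9342, 10973 and 9778 CPM in marker-positive cells of ASO mice and at 4916, 7397 and 4176 CPM in those of PBS mice. All ASO values lay above all PBS values, but the difference did not pass the test (log2 fold change 0.90, SE 0.29, edgeR adjusted p = 0.602). In cells with 2 or more UMIs the values were 12442, 12765 and 13179 CPM in ASO mice and 7816, 7646 and 6005 CPM in PBS mice (fitted log2 fold change 0.88, SE 0.28, edgeR adjusted p = 0.302). In marker-negative cells, Lyz2 was at 1637, 1047 and 1344 CPM in ASO mice and at 834, 1033 and 784 CPM in PBS mice (fitted log2 fold change 0.64, edgeR adjusted p = 0.222). Lyz1 was at 439, 613 and 583 CPM in marker-positive cells of ASO mice and at 160, 496 and 557 CPM in those of PBS mice, which overlapped.

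Among the genes with the lowest p, Malat1, a nuclear long non-coding RNA, was at 9393, 6069 and 7631 CPM in ASO mice and at 17154, 12810 and 13177 CPM in PBS mice. Its log2 fold change was -0.88 (SE 0.29, edgeR adjusted p = 0.602). In marker-negative cells Malat1 was at 10102, 8910 and 9789 CPM in ASO mice and at 14865, 11132 and 13662 CPM in PBS mice (edgeR adjusted p = 0.785).

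The other genes named for their low p, as many in each direction by the rule for naming, were each at an edgeR adjusted p of 0.602 or 0.650. With higher values in all ASO mice were Rpl8 and Rpsa, which encode ribosomal proteins (log2 fold changes 1.04 and 1.13), Tmem50a (1.03), Ftl1, the ferritin light chain (0.95), and Prdx1, a peroxiredoxin (0.87). Lower values in all ASO mice were found for Sdc4, syndecan 4 (-1.41), Tcf4 (-1.20), Dusp1, a phosphatase of MAP kinases (-0.99), and the transcription factors Fosb (-0.86) and Klf6 (-0.78). Klf6 was at 826, 981 and 874 CPM in ASO mice and at 1710, 1240 and 1763 CPM in PBS mice. In marker-negative cells Klf6 was at 334, 263 and 279 CPM in ASO mice and at 414, 343 and 379 CPM in PBS mice, at a lower level throughout.

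By list, 12 of 21 stress and immediate early genes could be tested in marker-positive cells, and 0 were called in either direction. All 12 fold changes were below 0 with a median log2 of -0.59, beside 0.01 over all 297 genes, and 3 of the 12 (Fosb, Dusp1 and Klf6) had every ASO mouse below every PBS mouse, beside 5.72% of all genes. In marker-negative cells 15 of 20 tested genes of the list were below 0, with a median of -0.15, where 49.1% of all 5123 fold changes were above 0. There 6 of the 20 had every ASO mouse below every PBS mouse, beside 5.37% of all genes. Without PBS mouse 3, 10 of the 20 were below 0 in marker-negative cells (median 0.01). In marker-positive cells 16 of 16 tested genes of the list were then below 0 (median -0.59, 0 called), beside a median of 0.02 over all 427 genes.

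Of 20 disease-associated microglia genes, 11 could be tested in marker-positive cells, with 10 fold changes above 0, a median of 0.60 and 0 called, beside 51.9% of all genes above 0. In marker-negative cells 16 of 17 tested genes of the list were above 0 (median 0.35, 0 called), and 5 had every ASO mouse above every PBS mouse, beside 5.13% of all genes. Without PBS mouse 3, 18 of 19 were above 0 there (median 0.29, 0 called), and 11 of 11 in marker-positive cells (median 0.73, 0 called). Apoe was at 42089, 43401 and 51618 CPM in ASO mice and at 20734, 39258 and 32665 CPM in PBS mice (fitted log2 fold change 0.60, SE 0.24, edgeR adjusted p = 0.650). B2m, the light chain of MHC class I, and Lyz2 shared with Apoe that every ASO mouse lay above every PBS mouse, as did 6.73% of all genes. Ctsd was at 8490, 4965 and 8824 CPM in ASO mice and at 1389, 6405 and 7146 CPM in PBS mice, which overlapped.

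The 4 tested MHC class II genes had fold changes below 0 (median -1.24, 0 called), with the overlap between groups described above, and a median of -1.73 without PBS mouse 3 (0 called). Of 7 tested chemokine and cytokine genes, 2 were above 0 (median -0.37, 0 called), and of 6 border macrophage genes outside the rule 2 were above 0 (median -0.08, 0 called), with Wfdc17 at 1.16 and Dab2 at -0.05. Of 7 tested microglial genes 3 were above 0 (median -0.04, 0 called), of 5 complement genes 3 (median 0.16, 0 called) and of 7 scavenging and lipid genes 5 (median 0.25, 0 called). Without PBS mouse 3, 5 of 7 microglial genes were above 0 (median 0.16). So were 4 of 8 border macrophage genes outside the rule (median 0.02) and 6 of 7 scavenging and lipid genes (median 0.46). The median was then -0.24 for chemokine and cytokine genes and 0.15 for complement genes, with 0 called in each list.

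**Figure D5:**
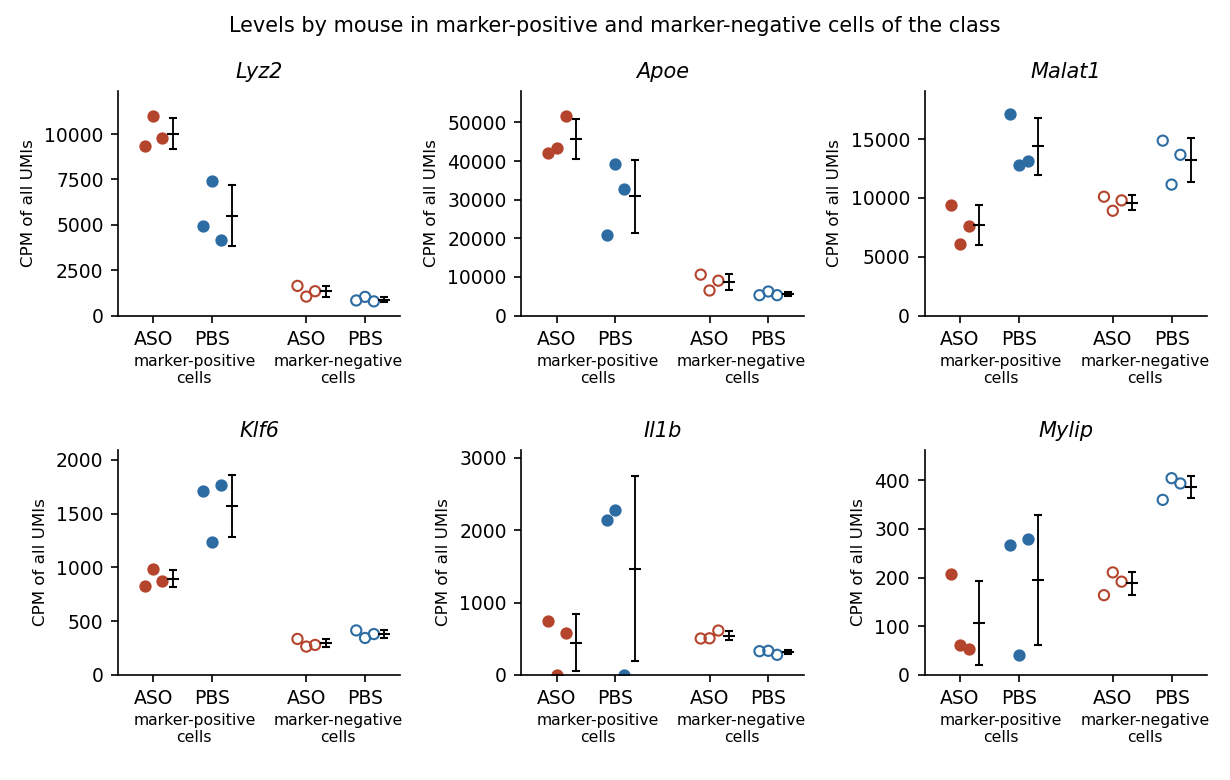
CPM of all UMIs (y axis) of 6 genes in each mouse, in marker-positive cells (filled) and marker-negative cells of the class (open), ASO (red) left of PBS (blue); black marks are means with SD, n = 3. Lyz2 and Apoe were higher and Malat1 and Klf6 lower in all ASO mice in marker-positive cells, without passing the test; Il1b was at 0 in 1 mouse of each group.

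Whether the ASO effect differed between marker-positive and marker-negative cells was tested with the mouse as a block, and 1 of 2955 genes (0.0338%) passed. That gene, Il1b, encodes the inflammatory cytokine interleukin 1 beta. In marker-positive cells it had 29, 0 and 22 UMIs in ASO mice and 40, 55 and 0 UMIs in PBS mice, or 748, 0 and 583 CPM in ASO mice and 2138, 2273 and 0 CPM in PBS mice. The groups overlapped, since 1 mouse of each was at 0. In marker-negative cells Il1b was at 502, 505 and 613 CPM in ASO mice and at 327, 333 and 277 CPM in PBS mice, without overlap (log2 fold change 0.82, SE 0.16, edgeR adjusted p = 0.0217). That call was lost without any 1 of the mice other than ASO mouse 2, at edgeR adjusted p of 0.0658 to 0.263.

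The difference of the ASO effects was -2.24 on the log2 scale (SE 0.41, edgeR adjusted p = 0.000192), while the fold change in marker-positive cells alone did not pass the test (-1.61, SE 0.77, edgeR adjusted p = 0.678). The 146 Il1b UMIs of marker-positive cells came from 26 cells, and 3 cells held 37.7% of them. Of these UMIs, 137 lay in 22 of the 73 marker-positive cells of cluster 5. In that cluster, 8 of the 9 cells with exactly 1 rule-gene UMI held 68 UMIs. Cluster 5 took 19 of 34, 10 of 15 and 12 of 30 marker-positive cells in ASO mice. In PBS mice it took 10 of 15, 17 of 23 and 5 of 10. The part of this mix in the difference was not tested. The call was lost when marker-positive cells were limited to 2 or more UMIs (-1.36, edgeR adjusted p = 0.999) or to cluster 5 (-1.56, adjusted p = 1), with a term for technical sets (-2.08, adjusted p = 0.0694), with no filter on low counts (-2.13, adjusted p = 0.105), and without ASO mouse 2 (-1.68, adjusted p = 0.320), PBS mouse 1 (-1.91, adjusted p = 0.239) or PBS mouse 2 (-1.65, adjusted p = 0.999). Lyz2, by comparison, had a difference of effects of 0.40 (SE 0.29, edgeR adjusted p = 0.999).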

How the data were processed

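The submitters' processing notes name bcl2fastq, STAR 2.5.0c, mm10 and GRCm38, and the counting program was not given in the sources used here. Whole-number counts of UMIs for 28324 genes in 12823 cells were deposited by the authors, not normalized, with the mouse and the authors' class in each column name. Replicate numbers follow sample order. Doublets (207 cells, 1.61%) were called per mouse with Scrublet in scanpy 1.11.5 and removed. UMIs were summed per mouse and cell set, since the mouse is the replicate. CPM is UMIs of a gene per 1000000 UMIs of the set; 3′ counts are not divided by gene length, so levels are compared for 1 gene across cells. The 2 groups were compared by the quasi-likelihood test of edgeR 4.0.16 under R 4.3.3 (TMM scaling, filterByExpr, two-sided, Benjamini-Hochberg adjustment over all genes tested, threshold 0.05), and the difference of effects with the mouse as a block. Counts of genes with every ASO mouse above or below every PBS mouse used CPM of the tested genes after TMM scaling. The CPM printed per mouse are without that scaling. The scripts were tested on simulated data. The class was clustered with Leiden (2000 variable genes without the rule genes, 30 components, 15 neighbours, resolution 1). Alternatives were DESeq2 1.42.0 and its size factors, a robust fit, no filter, doublets kept, 2 or more UMIs, thinning, technical sets and each mouse left out; cluster 5 in place of the rule, and the stricter shares without PBS mouse 3, were added after seeing the data. Named genes were the rule genes, Lyz2, Lyz1, Mylip, the 6 higher and 6 lower genes of lowest p, the 15 highest and 10 lowest ratios, and list members with the most UMIs; other genes, such as Il1b, B2m and Ttr, were chosen after their values were seen. The cells, lists and tests were chosen with earlier results of these data known. P-values measure the spread between these mice.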

Additional observations from a re-analysis of the deposited data

Results flagged for a closer look

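Il1b is singled out because its ASO effect differed between marker-positive and marker-negative cells of the class: the difference was -2.24 on the log2 scale (SE 0.41, edgeR adjusted p = 0.000192), with 748, 0 and 583 CPM in marker-positive cells of ASO mice and 2138, 2273 and 0 CPM in those of PBS mice. The mice at 0 were ASO mouse 2 and PBS mouse 3, and PBS mice 1 and 2 lay above all ASO mice. Of the 146 Il1b UMIs in marker-positive cells, 137 lay in cells of cluster 5, whose share of these cells varied between mice. The call was lost under 7 of 12 alternatives, namely with 2 or more UMIs, in cluster 5, with a term for technical sets (edgeR adjusted p = 0.0694), with no filter on low counts, and without ASO mouse 2, PBS mouse 1 or PBS mouse 2; over all 12, the adjusted p ran from 2.5e-08, without PBS mouse 3, to 1.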

How the results depend on the processing

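Between ASO and PBS mice, the 188 values of 14 named genes in marker-positive cells under the alternatives all had the direction reported and stayed without a call. Most of these genes were the 6 higher and 6 lower of lowest p in these same counts. Their kept direction is thus no independent support for an effect. Lyz2 ranged from 0.78 to 1.14 on the log2 scale. The count of called genes in these cells was 0 under every alternative except no filter on low counts, which called 1 gene, Usp24, and 0 whichever mouse was left out. In marker-negative cells the count was 2, against 6 with no filter, 4 with a term for technical sets, 4 with the robust fit and 0 to 7 when 1 mouse was left out. The count of genes whose ASO effect differed between the cell sets was 1, against 0 with no filter, 2 with doublets kept, 0 with 2 or more UMIs, 0 with a term for technical sets, 0 in cluster 5 and 0 to 3 when 1 mouse was left out; the 3, without PBS mouse 3, were Cd74, Il1b and Nr4a1. The Mylip difference of 0.63 was -0.52 to 1.24 when 1 mouse was left out, with the lowest value without ASO mouse 1. The cause of these changes was not tested. The share of marker-positive cells in the class was higher in ASO mice under all alternatives but 1 (1.69 to 4.26 percentage points when 1 mouse was left out), the share of cluster 5 without PBS mouse 3 (-0.23), and the share with 2 or more UMIs under all 8 (0.646 to 14.7). A rule of 2 or more UMIs gave no separate value for marker-negative cells. No paired analysis was possible because the labels give no replicate number shared between groups, and replicate numbers here only follow sample order. The technical sets were cut by rank from the data and are not in the design. They put same-numbered mice together, so the term for them acts as a fit of pairs. With that term the Il1b call was lost (-2.08, edgeR adjusted p = 0.0694). Depth limits what single cells show: at these UMI totals a gene with 0 UMIs in a cell is not shown to be absent from it.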
